A study of Mus musculus with 3 samples.

Results

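The Myddosome is the signalling complex that forms beneath Toll-like and interleukin-1 receptors once they are engaged. The adaptor MyD88 gathers the kinase IRAK4, which activates IRAK1 and IRAK2, and these pass the signal to the ubiquitin ligase TRAF6, which leads to NF-kB and the MAP kinases. IRAK3, also called IRAK-M, lacks kinase activity and is known mainly as a brake on the complex in monocytes and macrophages. In haematopoietic stem and progenitor cells the pathway lets microbial and inflammatory signals reach blood production directly, and it favours myeloid output. SPOP selects the proteins that a CUL3-based ubiquitin ligase marks, and MyD88 has been described as 1 of them.

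The genes described here are Myd88, Irak1, Irak2, Irak3, Irak4 and Traf6, chosen by name: 6 of the 14721 genes in the deposited count table, and all 6 were found there. They were measured in 21251 single mouse bone marrow cells of the LSK sort (lineage-negative, Sca-1-positive, Kit-positive), in 3 libraries made with the Chromium 3′ v2 chemistry, 1 library for each genotype. The DKO library came from Spop(D/D) Myd88(-/-) cells, the KO library from Spop(D/D) Myd88(+/+) cells and the WT library from Spop(+/+) Myd88(+/+) cells. Both the DKO and the KO cells thus carry the Spop deletion, and they differ by label in Myd88. The labels give neither the age of the mice, nor the number pooled, nor the driver of the deletion, nor the part of each gene that is removed. With 1 library per genotype there is no replicate and no test between genotypes, so the 95% intervals below cover counting error alone and a library effect cannot be told apart from a genotype effect.

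The DKO library held 8184 cells, the KO library 4920 and the WT library 8147, at medians of 12404.5, 17319 and 9245 UMIs (counted transcript molecules) per cell in that order. Spop itself was counted at 77.1 CPM in DKO, 63.1 in KO and 70.7 in WT, and since the deleted part is not given these 3′ tags do not check the deletion. The gate genes were present in all 3: Ly6a (Sca-1) stood at 89.5, 85.1 and 90.4 UMIs per 1000000 (CPM) in DKO, KO and WT, and Kit at 65.9, 41.5 and 94.8 CPM. Xist was at 1537 CPM in DKO, 0 in KO and 0.187 in WT, and Ddx3y on the Y chromosome at 0, 32.2 and 43.9 CPM, so the DKO library is female, the others are male, and sex cannot be told apart from genotype in comparisons with DKO. Marker sums of other lineages also moved with the libraries. The 12 neutrophil progenitor markers summed to 3631 CPM in DKO, 9006 in KO and 2250 in WT, the 15 erythroid progenitor markers to 889, 1733 and 708 CPM, and the 13 B lineage markers in the table to 74.6, 49.0 and 1053 CPM. These are summed libraries, in which fewer cells of a type and less RNA per cell cannot be told apart, and levels by cell class are therefore given beside them. Libraries shared few cell barcodes: 54 between DKO and KO, 83 between DKO and WT, and 46 between KO and WT.

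Promoter sequence is shown for Myd88 and Irak2, each from 250 bases before to 50 bases after the RefSeq start site on GRCm38.p6. Myd88 was the member that differed most between libraries. Irak2 had 64.3% of its KO UMIs in 1 cell class that held 17.1% of all KO UMIs. Capitals mark matches to response-element motifs, searched on both strands. Of the promoters of the 6 genes, Myd88's alone held the interferon-stimulated response element, spelled GAAA, any 2 bases, GAAA (-40 to -31, where 0 is the start site), which overlaps a match to the STAT letters TTCNNNGAA (-46 to -38).
Myd88, chr9:119339969-119340268, minus strand: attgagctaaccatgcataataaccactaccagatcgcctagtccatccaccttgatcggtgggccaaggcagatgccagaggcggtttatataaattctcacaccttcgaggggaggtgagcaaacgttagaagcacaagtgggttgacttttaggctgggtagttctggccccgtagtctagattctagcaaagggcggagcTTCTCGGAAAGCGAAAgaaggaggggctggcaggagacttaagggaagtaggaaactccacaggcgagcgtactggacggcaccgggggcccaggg
Irak2, chr6:113638217-113638516, plus strand: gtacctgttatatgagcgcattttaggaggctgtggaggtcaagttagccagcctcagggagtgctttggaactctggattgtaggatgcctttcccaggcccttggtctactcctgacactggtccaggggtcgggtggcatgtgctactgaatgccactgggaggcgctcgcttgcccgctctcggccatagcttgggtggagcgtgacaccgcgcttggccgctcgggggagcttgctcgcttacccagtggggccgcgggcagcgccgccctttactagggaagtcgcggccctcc

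The interferon letters occur in 3.44% of 32851 RefSeq mouse promoters of this length and the STAT letters in 8.30%. Irak2's promoter held no match to these, to the NF-kB motif (found in 4.51% of promoters), or to the GATA letters AGATAA (11.2%) and TGATAA (9.05%). TGATAA was found in 1 of the 2 promoters listed for Irak3, and the ETS letters CCGGAAG (8.86%) in Irak4's. These matches describe letters in a window and not binding, since no chromatin data were analysed here.

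The adaptor Myd88 was the member that differed most between the libraries. It stood at 4.47 CPM in DKO (95% interval 4.08 to 4.88, 491 UMIs), 25.8 CPM in KO (24.9 to 26.8, 2619 UMIs) and 13.7 CPM in WT (12.9 to 14.5, 1171 UMIs). KO was the highest and DKO the lowest, and no intervals overlapped. In the KO over WT comparison the ratio was 1.89 (1.76 to 2.03). Against KO, the DKO level was 5.78-fold lower (5.25 to 6.38), and against WT it was 3.06-fold lower (2.75 to 3.41). Tags were still counted to Myd88 in DKO, and because the removed part is not given in the sources used here they do not check the deletion. Myd88 lies on chromosome 9 (119335934 to 119341411, minus strand, GRCm38). Acaa1a, which overlaps it on the other strand, stood at 37.4 CPM in DKO, 34 in KO and 35.6 in WT, and so did not follow Myd88. Slc22a14, on the same strand at Myd88's 3′ end, is no row of the count table. Whether strand was used in counting is not given in the sources used here.

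The receptor-proximal kinase Irak4 varied little. Its level was 19.4 CPM in DKO (18.6 to 20.3), 17.4 in KO (16.6 to 18.2) and 16.9 in WT (16.1 to 17.8). The KO over WT ratio of 1.03 (0.956 to 1.10) includes 1. DKO was 1.12 times KO (1.05 to 1.19) and 1.15 times WT (1.07 to 1.23), both within 1.5-fold, and with TMM scaling the DKO over KO value turned to -0.03 on the log2 scale. Twf1, on the other strand at the 3′ end of Irak4, was at 19.1, 21.3 and 18.6 CPM in DKO, KO and WT.

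Irak1, the kinase that IRAK4 activates and that binds TRAF6, stood at 63.3 CPM in DKO (61.8 to 64.8), 55.7 in KO (54.2 to 57.1) and 70.3 in WT (68.5 to 72.1). KO was the lowest and WT the highest, at a KO over WT ratio of 0.792 (0.764 to 0.821). DKO was 1.14 times KO (1.10 to 1.18), a difference that was -0.01 on the log2 scale with TMM, and 0.901 times WT (0.870 to 0.933). Irak1 is on the X chromosome (74013914 to 74023918, minus strand), so the female DKO library differs from the male KO and WT libraries in its X chromosomes too, and the part of this in the DKO ratios was not tested.

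Irak2, the other kinase downstream of IRAK4, had nearly the same level in all 3 libraries with library totals: 3.05 CPM in DKO (335 UMIs), 3.07 in KO (311 UMIs) and 3.12 in WT (267 UMIs). Its KO over WT ratio was 0.985 (0.833 to 1.16), and with TMM its DKO over KO value was -0.20 on the log2 scale. The cells in which those UMIs lay differed between libraries, as described by cell class below.

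Irak3, the inhibitory member, was higher in DKO. It stood at 13.8 CPM there (13.1 to 14.5, 1517 UMIs), against 8.45 in KO (7.90 to 9.04, 857 UMIs) and 8.70 in WT (8.09 to 9.35, 746 UMIs). KO and WT overlapped, at a ratio of 0.971 (0.879 to 1.07), and DKO lay above both. DKO was 1.63 times KO (1.5 to 1.78) and 1.59 times WT (1.45 to 1.73). With TMM scaling the DKO over KO value was 0.51 on the log2 scale in place of 0.71, below the 1.5-fold threshold. Tmbim4, which overlaps Irak3 on the other strand, was also highest in DKO, at 141 CPM, against 116 in KO and 113 in WT, and its part in the Irak3 count was not tested.

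The ligase Traf6 was at similar levels with library totals, at 8.96 CPM in DKO, 9.42 in KO and 9.30 in WT. Its KO over WT ratio was 1.01 (0.921 to 1.11), and DKO was 0.951 times KO (0.869 to 1.04) and 0.964 times WT (0.877 to 1.06). With library totals each interval includes 1, while TMM scaling moved the log2 ratio of KO over WT to 0.17 and of DKO over KO to -0.27.

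**Figure D1:**
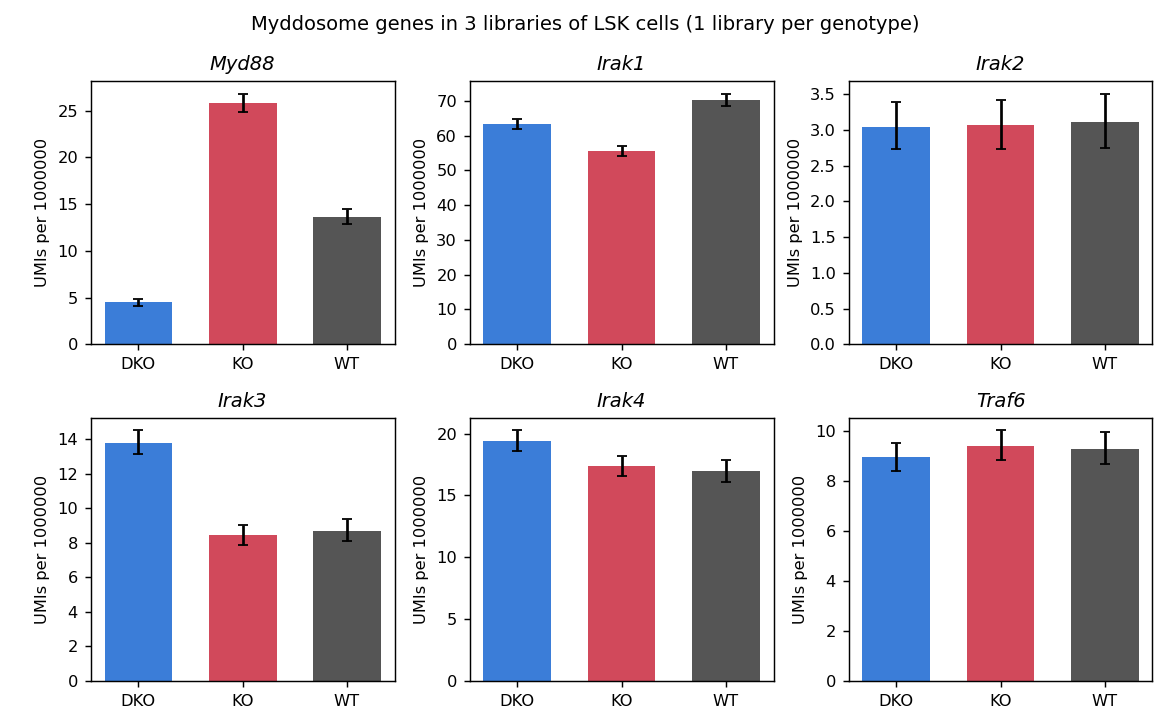
Level of each gene in the DKO, KO and WT libraries, in UMIs per 1000000 library UMIs on linear axes that start at 0 and differ between panels. Bars are 1 library each and error bars are exact Poisson 95% intervals, which cover counting error only; Myd88 is lowest in DKO (4.47) and highest in KO (25.8), and Irak3 is highest in DKO (13.8).

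A gene was counted as apart when its levels differed at least 1.5-fold at a pair mean of at least 5 CPM, which 5 members reached and Irak2 did not. Between KO and WT, 1 of the 5 was apart, Myd88, which was higher; over all genes 24.9% were apart in either direction and 7.77% were higher. Between DKO and KO, 2 were apart, Myd88 (lower) and Irak3 (higher), with 24.3% of all genes apart, 6.32% lower and 17.9% higher. Between DKO and WT the same 2 members were apart in the same directions, while 7.17% of all genes were, 3.55% lower and 3.62% higher. Myd88 is the gene removed by label in DKO, so its place in both counts with DKO follows from the design. The other member apart in them was Irak3 alone. For KO over WT, 1 of 5 lies near the background, so that count says nothing particular about the members, and both comparisons with DKO share the DKO library. Scaling bears on these counts. Of all genes at least 1.5-fold apart, 703 were higher and 1550 lower in KO than in WT with library totals, against 1257 and 1074 with TMM. For DKO over KO the split was 1610 higher and 567 lower, against 962 and 1126 with TMM. The median log2 ratio of all genes was -0.08 for KO over WT and 0.13 for DKO over KO with library totals, and 0.08 and -0.06 with TMM. Myd88 kept its direction under both.

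Depth differs between the libraries, so the share of cells with a UMI of a member was also taken after thinning each cell to 5500 UMIs, which left out 178 DKO, 0 KO and 683 WT cells. Before thinning, Myd88 was seen in 5.74% of DKO, 35.2% of KO and 13.3% of WT cells. After it the shares were 2.59%, 11.7% and 7.70%, in the same order. Irak3 was seen in 7.42% of DKO cells after thinning, against 4.39% of KO and 4.70% of WT cells. Irak1 was the most often seen, in 29.3%, 27.3% and 31.2% of DKO, KO and WT cells, and Irak2 the least often, in 1.82%, 1.83% and 2.06%. At this depth 3 or more of the 6 genes were seen together in 0.749% of DKO, 1.04% of KO and 1.0% of WT cells. No cell class here is known to lack these genes, so the shares were not set against a class without them.

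Cells of the 3 libraries were clustered together without the member genes, and classes were named from marker genes. Few classes were well filled in all libraries. Neutrophil progenitor-like cells made up 0.709% of DKO, 29.9% of KO and 0.295% of WT cells, and erythroid progenitor-like cells 2.08%, 22.7% and 0.479%. The top 15 genes of the neutrophil progenitor-like class held 6 neutrophil progenitor markers. They also held 3 monocyte-dendritic progenitor markers, Ly6c2, Ccr2 and F13a1. At the finer clustering resolution of 1.5, a cluster with 4 and 3 such markers and 745 KO cells was left unnamed. A cluster led by Vldlr, Ifitm1 and Ly6a made up 0.110% of DKO, 31.6% of KO and 0.221% of WT cells. It was kept unnamed because Ifitm1 and Ly6a, markers of stem cells, are also interferon-induced genes, a choice made after the clusters had been seen. A class filled almost wholly by KO cells can stand for that library as much as for a kind of cell. Libraries were compared within a class only where each had at least 50 cells, which gave 5 classes for DKO over KO, 10 for DKO over WT and 3 for KO over WT.

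Myd88 in KO was highest in the neutrophil progenitor-like class, at 32.8 CPM (31.2 to 34.4), and lowest in the erythroid progenitor-like class, at 16.7 (14.8 to 18.7). The former class also carries monocyte-dendritic markers, as given above, so its level is not that of neutrophil progenitors alone. The neutrophil progenitor-like class held 59.2% of KO's Myd88 UMIs and 46.7% of all its UMIs. In the other KO classes Myd88 stood at 23.0 CPM (megakaryocyte progenitor-like), 20.9 (lymphoid-primed-like), 20.8 (the cluster led by Vldlr) and 18.8 (a cluster led by the basophil and mast cell genes Prss34 and Fcer1a). In WT it ran from 9.23 CPM in the B lineage-like class to 16.9 in the Prss34 cluster, with a median of 14.7 over 11 classes. All 6 KO classes thus lay above that WT median, though the intervals of some overlap with those of WT classes.

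Within the megakaryocyte progenitor-like class, with 372 KO and 387 WT cells, Myd88 stood at 23.0 CPM in KO and 13.4 in WT, a ratio of 1.72 (1.24 to 2.43). In that class 4.25% of all genes were at least 1.5-fold higher in KO, and 13.7% had an interval above 1. In the lymphoid-primed-like class the ratio was 1.42 (0.904 to 2.14) and in the Prss34 cluster 1.11 (0.714 to 1.73), and both intervals include 1. The lymphoid-primed-like class was mostly 1 of its 2 clusters in KO (70 of 92 cells, led by Dntt) and mostly the other in WT (1178 of 2076, led by Wfdc17). With the neutrophil progenitor-like class left out of both libraries, a choice made after seeing the data, Myd88 was at 19.8 CPM in KO and 13.7 in WT, a ratio of 1.45 (1.33 to 1.57), below the 1.5-fold threshold. With the erythroid progenitor-like class left out in the same way, the ratio was 2.03 (1.89 to 2.18).

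Myd88 was lower in DKO than in KO in all 5 classes that could be compared, with every interval below 1. It was 4.96-fold lower in the megakaryocyte progenitor-like class, 6.92-fold in the lymphoid-primed-like class, 5.04-fold in the Prss34 cluster and 3.63-fold in the erythroid progenitor-like class. In the neutrophil progenitor-like class DKO had 2 UMIs in 58 cells, a ratio of 0.0453 (0.00548 to 0.164). The cells of that class were not alike in the neutrophil progenitor marker Elane, at 6208 CPM in DKO and 2233 in KO. Another such marker, Ms4a3, was similar, at 1207 and 1247 CPM. The share of all genes with an interval below 1 was 14.5%, 7.08%, 8.35%, 19.9% and 15.2% in these 5 classes, in the order given. Against WT, Myd88 in DKO was lower with an interval below 1 in 9 of 10 classes, from 0.205 times the WT level in the lymphoid-primed-like class to 0.493 times in a cluster led by Gm19590 and Txnip. Over all genes, 3.22% to 22.7% had an interval below 1 in the 10 classes. The remaining cluster, led by Zfp36 and Fos, held 6 UMIs in 50 DKO cells, at a ratio of 0.891 (0.323 to 1.97). In the stem cell-like class Myd88 was at 6.07 CPM in DKO and 14.7 in WT, a ratio of 0.413 (0.285 to 0.591).

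Irak2 was unevenly distributed over KO cells. The erythroid progenitor-like class held 200 of the 311 Irak2 UMIs of the KO library, or 64.3% (58.7 to 69.6, Clopper-Pearson), though it held 17.1% of all UMIs. Its level there was 11.5 CPM (10.0 to 13.3), against 1.20 in the neutrophil progenitor-like class, 1.75 in the cluster led by Vldlr and 0.951 in the megakaryocyte progenitor-like class. No Irak2 UMI was counted in the 92 lymphoid-primed-like KO cells (interval up to 3.09 CPM) or in the 171 KO cells of the Prss34 cluster (up to 1.31 CPM). The erythroid progenitor-like class of DKO stood at a similar level, 9.20 CPM (6.01 to 13.5, 26 UMIs), with a DKO over KO ratio of 0.797 (0.508 to 1.20). The KO cells of this class were mostly in a cluster with globin genes (986 of 1118) and the DKO cells mostly in another led by Mt2 and Car1 (168 of 170). Within the Mt2 and Car1 cluster Irak2 was at 9.0 CPM in DKO, 9.74 in KO and 7.94 in WT, the WT value resting on 4 UMIs in 36 cells. The erythroid gene Car1, as a marker of free erythroid RNA, was at 1789 CPM in the KO erythroid progenitor-like class and at 5.85 to 39.7 CPM in the other KO classes.

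Left without its erythroid progenitor-like class, a choice made after seeing the data, each library gave another order of Irak2 levels than in the whole libraries. The level was 2.89 CPM in DKO (309 UMIs), 1.32 in KO (111 UMIs) and 3.09 in WT (263 UMIs). DKO was then 2.19 times KO (1.75 to 2.74), and KO was 2.34-fold lower than WT (1.87 to 2.95). With the neutrophil progenitor-like class left out instead, KO stood at 4.70 CPM and WT at 3.12, a ratio of 1.51 (1.26 to 1.79). The equal levels of the whole libraries therefore depend on which classes are summed. Within the megakaryocyte progenitor-like class the KO over WT ratio was 0.419 (0.110 to 1.39), on 5 KO and 9 WT UMIs. The Prss34 cluster held 0 KO and 5 WT UMIs, with an interval of the ratio up to 0.844, where 11.6% of all genes had an interval below 1. The lymphoid-primed-like class held 0 KO and 64 WT UMIs, with an interval up to 1.01. In the neutrophil progenitor-like class DKO stood at 6.68 CPM, from 9 UMIs in 58 cells, and KO at 1.20, a ratio of 5.54 (2.41 to 11.3). There 14.9% of all genes had an interval above 1, and the DKO and KO cells of that class differed in the marker Elane, as given above. In the lymphoid-primed-like class DKO stood at 1.67 CPM and WT at 3.14, a ratio of 0.531 (0.286 to 0.929), where 22.7% of all genes had an interval below 1. DKO cells of that class were mostly in the cluster led by Dntt (468 of 725), where Irak2 was at 1.37 CPM in DKO and 1.55 in WT, and WT cells mostly in the cluster led by Wfdc17, where it was at 2.60 in DKO (6 UMIs) and 5.02 in WT. Among WT classes with at least 50 cells, Irak2 was highest in the stem cell-like class at 5.06 CPM (3.44 to 7.19) and lowest in the B lineage-like class at 1.11 (0.534 to 2.05). The 36 WT cells of the Mt2 and Car1 cluster, too few to be ranked, stood at 7.94 CPM, as given above.

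**Figure D2:**
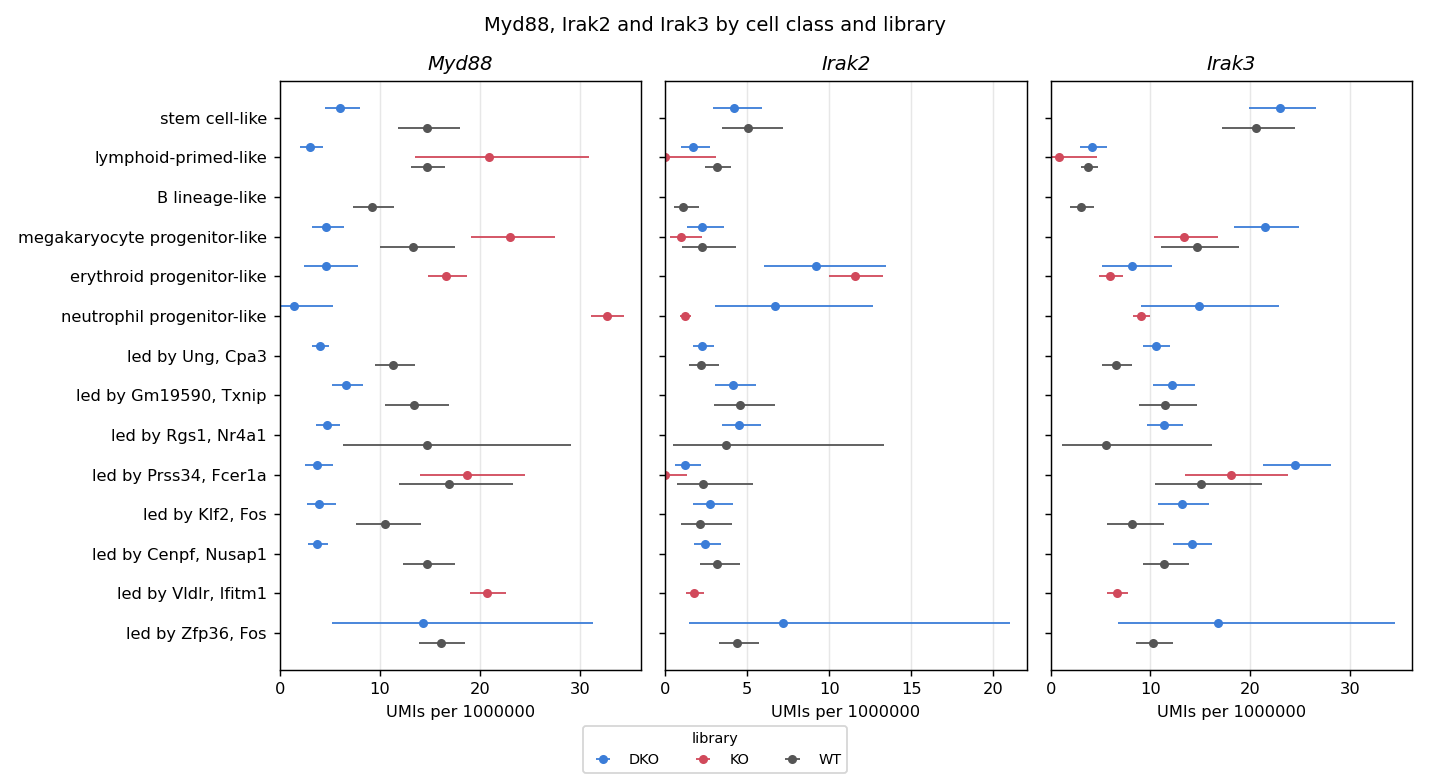
Myd88, Irak2 and Irak3 by cell class (rows) and library (DKO, KO and WT from top to bottom within a row), in UMIs per 1000000 UMIs of that class, for classes with at least 50 cells in the library. Points are levels and lines exact Poisson 95% intervals; DKO lies left of KO for Myd88 in every shared class, Irak2 is highest in the erythroid progenitor-like class of DKO and KO, and Irak3 is low in the lymphoid-primed-like class of all 3 libraries.

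Irak3 separated cell classes more than libraries. It was lowest in the lymphoid-primed-like class of DKO (4.17 CPM) and of KO (0.837, from 1 UMI), and in WT it was low there (3.78) and lowest in the B lineage-like class (3.0). It was highest in the Prss34 cluster of DKO (24.5 CPM, 21.3 to 28.1) and of KO (18.1, 13.4 to 23.7), and in the stem cell-like class of WT (20.6, 17.1 to 24.5). The megakaryocyte progenitor-like class stood at 21.5 CPM in DKO, 13.3 in KO and 14.6 in WT.

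The higher Irak3 of the DKO library was seen in some classes. In the megakaryocyte progenitor-like class DKO was 1.61 times KO (1.21 to 2.16) and 1.47 times WT (1.08 to 2.01), where 26.5% of all genes had a DKO over KO interval above 1. Of the 5 classes compared between DKO and KO, this was the 1 with an interval above 1. Over all genes, 14.9% to 26.5% had such an interval in those 5 classes, at a median of 22.2%. The 1 of 5 lies near that share and so says nothing particular about Irak3. Of the 10 compared with WT, 4 had an interval above 1 and none lay below it; the other 3 were the Prss34 cluster (1.62, 1.12 to 2.42), a cluster led by Ung and Cpa3 (1.62, 1.24 to 2.13) and a cluster led by Klf2 and Fos (1.62, 1.09 to 2.46). Over all genes, 6.49% to 30.7% had an interval above 1 in those 10 classes, at a median of 21.5%. How many genes had such an interval in 4 of the 10 classes was not counted. In the stem cell-like class the DKO and WT levels of 23.0 and 20.6 CPM gave a ratio of 1.12 (0.888 to 1.41). In the erythroid progenitor-like class the DKO over KO ratio was 1.37 (0.831 to 2.17), with DKO and KO cells mostly in different clusters. Within the cluster led by Mt2 and Car1, Irak3 was at 8.28 CPM in DKO (5.25 to 12.4, 23 UMIs). In KO it was at 2.43 there (0.790 to 5.68, 5 UMIs), and these intervals overlap.

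The other 3 members were more even over classes. Irak1 ran from 44.6 CPM in the erythroid progenitor-like class to 66.8 in the Ung cluster of DKO, from 48.1 in the erythroid progenitor-like class to 63.5 in the Vldlr cluster of KO, and from 45.5 in the B lineage-like class to 81.2 in the Ung cluster of WT. KO was below WT in the megakaryocyte progenitor-like class, at a ratio of 0.829 (0.705 to 0.975), and in the lymphoid-primed-like class, at 0.708 (0.543 to 0.910), where 16.2% and 11.3% of all genes had an interval below 1. DKO over WT had an interval below 1 in 5 of 10 classes, in which 3.22% to 22.7% of all genes did, and DKO over KO in none of 5, in which 7.08% to 19.9% of all genes did.

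Irak4 was lowest in the B lineage-like class of WT, at 8.01 CPM (6.27 to 10.1), against 14.8 or more in the 10 other WT classes with at least 50 cells. In the 36 WT cells of the cluster led by Mt2 and Car1, Irak4 stood at 5.96 CPM, from 3 UMIs. In KO it stayed between 14.2 and 18.4 CPM. In DKO it ran from 11.7 CPM in the erythroid progenitor-like class, a ratio of 0.686 to KO (0.463 to 0.985), to 27.8 in the Gm19590 cluster, a ratio of 1.33 to WT (1.07 to 1.66). In the first of these comparisons 19.9% of all genes had an interval below 1, and in the second 22.1% had 1 above it. The erythroid cluster led by Mt2 and Car1 held most DKO cells of the erythroid progenitor-like class. There Irak4 was at 11.9 CPM in DKO and 11.2 in KO, so the lower class value was not seen within that cluster. Traf6 showed no class with an interval on either side of 1 in any of the 3 comparisons, its levels being 5.94 to 10.7 CPM in DKO, 8.77 to 13.4 in KO and 3.69 (2 UMIs) to 11.7 in WT. Among WT classes with at least 50 cells, the highest value of Traf6 was in the B lineage-like class. Of these classes it also had the lowest level of each of Myd88, Irak1, Irak2, Irak3 and Irak4.

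**Figure D3:**
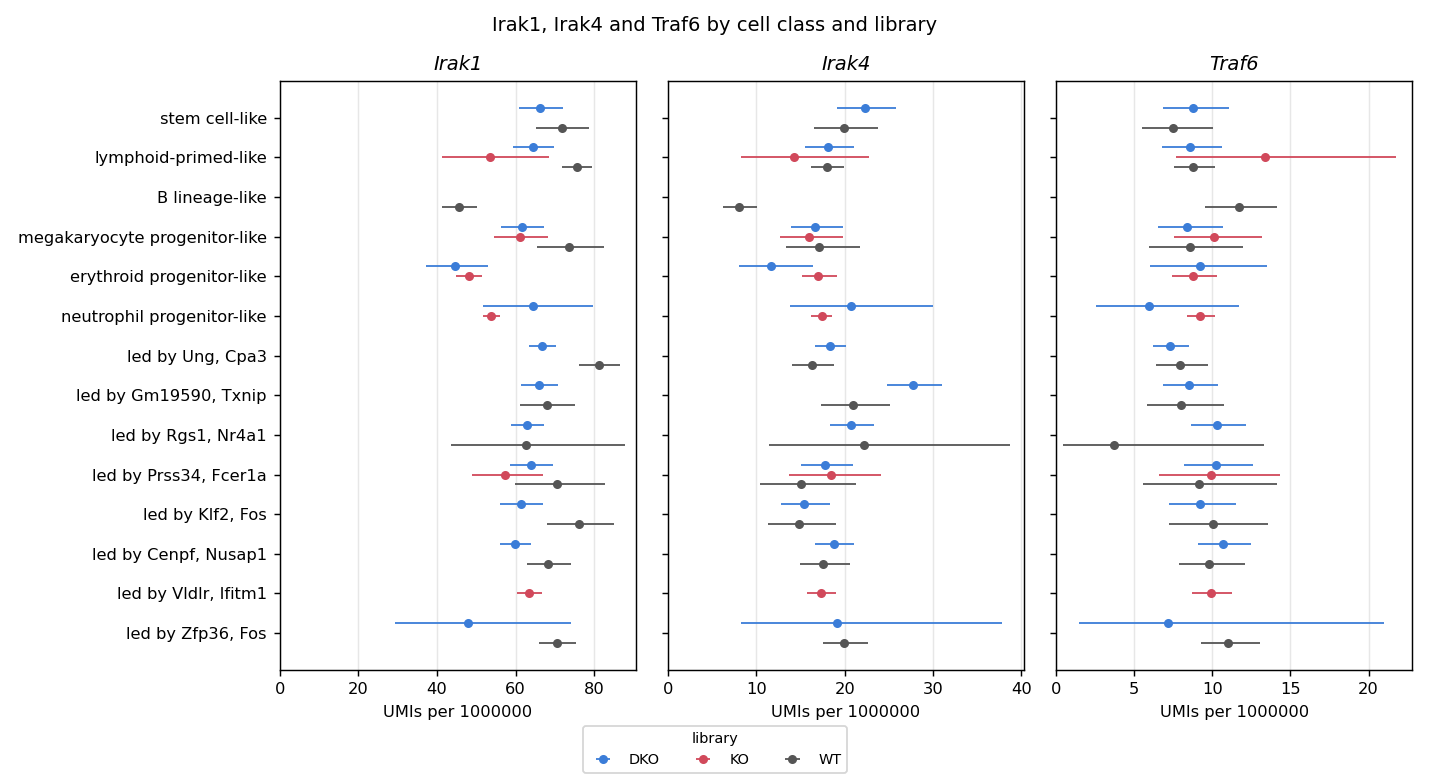
Irak1, Irak4 and Traf6 by cell class (rows) and library (DKO, KO and WT from top to bottom within a row), in UMIs per 1000000 UMIs of that class, for classes with at least 50 cells in the library. Points are levels and lines exact Poisson 95% intervals; Irak1 and Irak4 are lowest in the WT B lineage-like class among WT classes (45.5 and 8.01), and within each class the Traf6 intervals of the libraries overlap.

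The genes most like each member were taken from 29 sums of class and library, by Pearson correlation of log2(CPM + 1) among genes with a mean of at least 20 CPM. These sums share libraries and depth, so the values are descriptions. Irak4 was most like Cd300a (r = 0.90), Rinl (0.82) and Itm2b (0.81). Irak3 was most like Pdk3 (0.89), Nucb1 (0.87) and Itga6 (0.87). Irak1 was most like Homer3 (0.77), Spin1 (0.76) and Mapk14 (0.75), the last being the p38 MAP kinase downstream of the complex. Irak2 was most like Uap1 (0.73), Trmt10c (0.72) and Prdx6 (0.70), and Traf6 was most like Asxl1, Mta1 and Cds2 (0.74 each). For Myd88 the list was Eif2s3y (0.89), Gm10709 (0.87) and Ddx3y (0.84); Eif2s3y and Ddx3y are Y-linked, so they are counted in the male KO and WT libraries and not in DKO, in which Myd88 is low. Over the 17 sums of KO and WT alone, a choice made after seeing the data, Myd88 was most like Ufc1 (0.84), Pdcd6 (0.82) and Sec61a1 (0.82). The lists of the other members changed as well. Irak1 was then most like Nfic (0.87), Serf1 and Tmem106c, so Mapk14 was no longer listed. The Irak2 list became Zfp800, Grina and Fbxo7, and the Irak4 list Ctsd, Itm2c and Lmo2. Irak3 kept Itga6 and Nucb1, and Traf6 kept Mta1.

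The rest of the pathway was described with lists of genes by role. Upstream receptors were mixed between KO and WT. Of 4 measured genes of the Toll-like receptor group, 2 were at least 1.5-fold lower and 0 higher, at a median log2 ratio of -0.62 (-0.47 with TMM). They were Cd180, a receptor on B lineage cells, at 5.58 CPM in KO and 13.1 in WT, and Ly96 (MD-2, the partner of TLR4), at 4.59 in KO and 7.63 in WT. The B lineage marker sum, 49.0 CPM in KO and 1053 in WT, moved the same way between KO and WT. In DKO that sum was also low, at 74.6 CPM, while Cd180 stood at 15.7 CPM and Ly96 at 7.42. The part of B lineage cells in these genes was not tested. Ly86 (MD-1, the partner of CD180) was within 1.5-fold, at 22.3 CPM in KO and 17.8 in WT. All 4 interleukin-1 family receptors with a pair mean of at least 5 CPM were lower: Il18r1 was 3.51-fold lower (3.08 to 4.0), Sigirr, an inhibitory member, 2.17-fold, Il18rap 2.10-fold and Il1r1 1.98-fold. The list's median log2 ratio was -1.10, and -0.94 with TMM. Over all genes the median was -0.08 and 17.1% were lower. Il1rl1, the receptor for interleukin-33, fell just short of that mean and stood at 8.62 CPM in KO and 0.630 in WT, a ratio of 13.7 (10.4 to 18.4), the opposite direction.

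The DKO over KO comparison shares the KO library with this one. Of 5 measured interleukin-1 family receptors 3 were higher in DKO and 1 was lower, against 17.9% and 6.32% of all genes. Il18r1 was 2.85 times KO (2.51 to 3.25) and Sigirr 2.08 times (1.97 to 2.20), while Il1rl1 was 4.93-fold lower (4.22 to 5.80), at 1.75 CPM in DKO and 8.62 in KO. Against WT none of the 4 measured in DKO was 1.5-fold apart. Of the TIR adaptors beside MyD88, 1 was measured between KO and WT and was not apart.

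Among 16 measured partners and ubiquitin enzymes, 2 were higher and 3 lower in KO than in WT, near the 7.77% and 17.1% of all genes, so the counts show nothing particular to the list. Peli1, a ligase acting on the IRAK kinases, stood at 19.4 CPM in KO and 43.1 in WT. Tifa, which activates TRAF6, was at 23.0 in KO and 50.1 in WT, and its relative Tifab, described as restraining TRAF6, at 18.5 in KO and 10.5 in WT. Tifab was lowest in DKO, at 2.76 CPM, or 6.72-fold lower than in KO (5.95 to 7.61) and 3.81-fold lower than in WT (3.34 to 4.35). The neutrophil progenitor marker sum was also highest in KO, at 9006 CPM. Unlike Tifab it was higher in DKO (3631 CPM) than in WT (2250), and its part in Tifab was not tested. Tab1, a partner of the kinase TAK1, was higher in DKO, at 11.6 CPM, against 6.63 in KO and 7.0 in WT.

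In the IKK and MAP kinase arm, 1 of 17 measured genes was higher and 5 lower in KO than in WT, against 7.77% and 17.1% of all genes. The higher one was Irf7, an interferon-induced factor that binds MyD88, at 29.4 CPM in KO and 12.2 in WT, a ratio of 2.41 (2.24 to 2.58). Irf5, another factor used by MyD88, was at 4.38 CPM in KO and 12.7 in WT, and stood at 14.0 CPM in DKO, 3.19 times KO (2.87 to 3.56). Irf7 in DKO, at 20.6 CPM, was 1.68 times WT (1.56 to 1.81). Of 5 measured NF-kB subunits, 2 were lower in KO than in WT: Rel was 2.14-fold lower and Relb 1.61-fold. Of 4 measured between DKO and KO, 0 were apart, where 24.3% of all genes were.

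The feedback inhibitors had 6 of 14 measured genes at least 1.5-fold lower and 0 higher in KO than in WT, and 6 lower and 2 higher with TMM, beside 17.1% of all genes lower and 7.77% higher with library totals. Nfkbiz was 5.21-fold lower (4.74 to 5.73), the phosphatase gene Dusp1 4.40-fold (4.22 to 4.6), Tnip3 2.55-fold and Nfkbie 2.23-fold. Between DKO and KO, 4 were higher and 1 lower, beside 17.9% and 6.32% of all genes, led by Tnip3 at 35.8 CPM in DKO and 7.53 in KO and by Dusp1 at 95.1 CPM in DKO and 25.6 in KO. Nfkbiz and Dusp1 are also immediate early genes, which lead clusters that held 20.01% of DKO, 0.894% of KO and 21.5% of WT cells. Without those clusters, a choice made after seeing the data, 4 feedback inhibitors were lower in KO than in WT, with Nfkbiz 1.70-fold lower and Tnip3 2.43-fold lower, where 16.3% of all genes were lower. Dusp1 was then 1.38-fold lower in KO than in WT, no longer 1.5-fold apart. Dusp1 in DKO was then 1.67 times KO, where 17.8% of all genes were higher. Against WT in whole libraries, DKO had 1 feedback inhibitor higher and 4 lower of 15 measured, 1 higher and 2 lower of 18 in the IKK and MAP kinase arm, and 1 higher and 1 lower of 17 partners, where 3.62% of all genes were higher and 3.55% lower.

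Within the megakaryocyte progenitor-like class, also chosen after seeing the data, several list counts changed. No Toll-like or interleukin-1 family receptor of the 3 and 1 measured was 1.5-fold apart between KO and WT, where 8.49% of all genes were lower. The Toll-like group's median log2 ratio there was 0.46, of the opposite sign to that in whole libraries. Cd180 was 1.38 times WT in KO (0.992 to 1.93) and Ly96 1.42 times (0.765 to 2.73), both with intervals that include 1. Feedback inhibitors split into 2 higher and 4 lower. Tnip3 was higher in KO there, at 40.7 CPM against 19.9 in WT, a ratio of 2.04 (1.57 to 2.68), whereas in the whole libraries it was lower. Dusp1 remained lower, at 31.8 CPM in KO and 102 in WT, and Irf7 remained higher, at 12.9 CPM in KO and 4.54 in WT, a ratio of 2.85 (1.68 to 5.09). Whole libraries and this class thus gave different directions for Tnip3 and the same direction for Dusp1 and Irf7. The part of the mix of cells in the whole-library values was not tested.

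**Figure D4:**
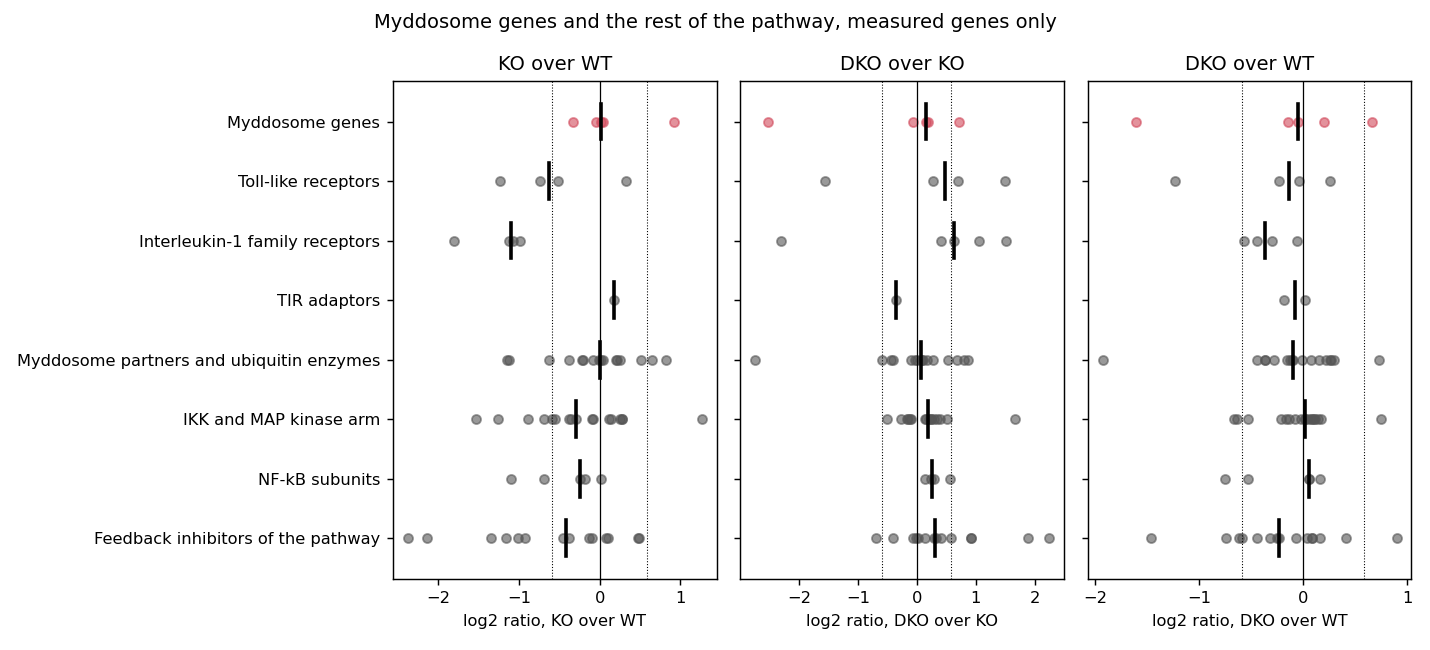
Log2 ratio of each measured gene (mean of at least 5 CPM over the pair) in KO over WT, DKO over KO and DKO over WT, for the Myddosome genes (red) and 7 lists of the pathway (grey), in whole libraries. Points are genes, short vertical bars the median of a list and dotted lines the 1.5-fold threshold; all 4 interleukin-1 family receptors measured lie below that threshold in KO over WT, and Myd88 is the lowest red point in both comparisons with DKO.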

How the data were processed

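Per the labels, LSK cells were sorted from mouse bone marrow and made into 3 Chromium 3′ v2 libraries. Per the submitters' processing notes, Seurat, Cell Ranger and bcl2fastq were used with mm10; versions and roles are not given in the sources used here. UMI counts, whole numbers for each gene and cell, are what the authors deposited as raw values. The authors' other deposited table holds natural log values, ln(1 + 10000 × count over cell total), which matched the counts of the 6 genes within 0.001 in all 21251 cells. Here counts were summed per library or class and divided by the total. Intervals are exact Poisson for levels, exact conditional binomial for ratios and Clopper-Pearson for shares, at 95%.

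Cells were clustered with scanpy 1.11.5 (2000 variable genes, chosen after removing the members and genes of the sex chromosomes' sex-specific set, mitochondria, ribosome and cell cycle, 30 components, 20 neighbours, Leiden resolution 1). A class name needed 3 markers among the top 15 genes and a lead of 2 over the next list. Classes under 50 cells were not used. Scrublet called 0.0489% of DKO, 0.793% of KO and 0.0245% of WT cells, too few to have worked in DKO and WT, so all cells were kept.

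Gene positions are from GENCODE vM21. The members, gene lists and comparisons were chosen with earlier results of these data known. Named pathway genes are up to 4 per list and comparison with the largest ratios past 1.5-fold, and Spop, Xist and Ddx3y as label checks; marker and overlapping genes were chosen after values were seen. Calculations were tested on simulated data. A planned description of protein motifs was not made. Alternatives were TMM (edgeR 4.0.16) and median-of-ratios scaling, library totals leaving out the 50 top genes, other thresholds, equal weight for each cell, thinning, doublet and mitochondrial filters, cell classes left out, standardised cluster shares and other clusterings.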

Additional observations from a re-analysis of the deposited data

How the results depend on the processing

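No paired analysis was possible because there is 1 library per genotype and no result comes from a test. The log2 ratio of Myd88 kept its sign under every alternative tried. For KO over WT, 0.92 as reported, it was 1.07 with TMM, 1.09 with median-of-ratios scaling, 0.72 with equal weight for each cell, 0.66 thinned to 5500 UMIs, 0.56 without erythroid, neutrophil or B lineage classes, 0.67 standardised to WT cluster shares, and, added after seeing the data, 1.02 and 0.53 without the erythroid or the neutrophil progenitor-like class. For DKO over KO (-2.53) the values under the same alternatives were -2.73, -2.73, -2.22, -2.25, -2.21 and, standardised to KO shares, -3.58, and -2.13 without the neutrophil progenitor-like class. For DKO over WT (-1.61) the standardised value was -1.13. Standardising used 3, 5 and 11 clusters for KO over WT, DKO over KO and DKO over WT, and the first held 12.5% of KO and 17.6% of WT cells. The second held 22.2% of DKO and 45.0% of KO cells. They included the neutrophil progenitor-like class, in which DKO had 2 Myd88 UMIs. For Irak2, standardising gave -2.82 for KO over WT. That value rests on 5 KO UMIs, all in the megakaryocyte progenitor-like class. The count of members apart was 0 in each comparison at a mean of 20 CPM, which fewer members reach. At 2-fold it was 0 for KO over WT and 1 for both comparisons with DKO, that 1 being Myd88, which is removed by label there. At a difference of at least 25% the count was 2 for KO over WT. With TMM and with median-of-ratios scaling it was 1 for DKO over KO.

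All genes apart numbered 1085, 1004 and 228 at 20 CPM, 5921, 5747 and 2983 with no minimum, 830, 719 and 163 at 2-fold, and 4680, 4424 and 2678 at 25%, for KO over WT, DKO over KO and DKO over WT. Thinning reversed 11 differences in the share of cells with a UMI, in percentage points: KO minus WT became -3.95 for Irak1, -0.234 for Irak2, -0.312 for Irak3, -0.153 for Irak4 and -0.465 for Traf6; DKO minus KO became 2.06 for Irak1, 1.57 for Irak4 and 0.389 for Traf6; DKO minus WT became -1.89 for Irak1, -0.240 for Irak2 and -0.0760 for Traf6. It also moved, without turning them, Myd88 (4.04, -9.16 and -5.12 for KO minus WT, DKO minus KO and DKO minus WT), Irak2 (-0.00564 for DKO minus KO), Irak3 (3.03 for DKO minus KO and 2.72 for DKO minus WT) and Irak4 (1.41 for DKO minus WT). Thinning lowers each share by its construction, most in the deepest library. Clustering at resolutions of 0.6 and 1.5 left all 80 compared class ratios within their counting intervals. Class values that rest on few UMIs, such as Irak2 in KO and Myd88 in DKO, are limited by depth.

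Counts of pathway genes apart moved by over 1.5 times in 34 of 84 list and setting pairs. At a mean of 20 CPM, which fewer genes reach, those that moved were 0 Toll-like receptors and 2 feedback inhibitors in each comparison, 1 interleukin-1 family receptor in KO over WT and in DKO over KO, 1, 0 and 0 IKK and MAP kinase genes in the 3 comparisons, 0 NF-kB subunits in both comparisons with WT, and 2 and 0 partners in DKO over KO and DKO over WT. With TMM they were 1 Toll-like receptor and 1 NF-kB subunit in KO over WT, 2 IKK and MAP kinase genes in DKO over KO and 1 interleukin-1 family receptor in DKO over WT. In the megakaryocyte progenitor-like class they were 0 receptors of both families in KO over WT and DKO over KO, 3, 2 and 1 partners and 1, 0 and 1 TIR adaptors in the 3 comparisons, 2 IKK and MAP kinase genes in DKO over KO, and 0 NF-kB subunits in both comparisons with WT. Without the clusters led by immediate early genes they were 1 and 0 NF-kB subunits in KO over WT and DKO over WT and 3 feedback inhibitors in DKO over WT. A planned description of protein motifs was not run.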
